A study of Homo sapiens with 12 samples.

Results

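The data described here are the baseline transcriptome of A549 cells that carry an empty vector. A549 is an established human lung adenocarcinoma line, widely used as a model of the distal lung epithelium. The vector cells were infected with the empty lentiviral vector that matches the TIF1γ expression vector, are given the genotype WT in the labels, and were grown in DMEM with 10% fetal bovine serum at 37 °C and 5% CO2. They served as the negative control of a stable line overexpressing TIF1γ (the TRIM33 product), and a second control, sh-NC, accompanied a stable line with an shRNA against TAF15. The series lists 12 samples, 3 biological replicates in each of these 4 groups, and the members were all 3 vector samples, taken by their titles. The labels do not say whether the replicates came from separate infections or from repeated cultures of 1 infected population, so the spread reported below may be partly technical. No uninfected A549 cells were analysed here, so what the empty vector itself does to these levels was not tested. As no contrast was made, no test was run: levels are given per library and error is the SD of 3 libraries.

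Gene expression was measured by RNA sequencing and is given in FPKM, a level corrected for the length of the transcript and for the number of fragments mapped in the library. Each vector library lists 57879 gene identifiers, of which 19254 were protein-coding genes with a symbol, and these were ranked by their mean FPKM. They held 94.96% ± 0.39 (SD, n = 3) of the summed FPKM, which was 881293, 1028977 and 891900 in replicates 1, 2 and 3. Depth is not stated, but low values fall on steps of 1 fragment, from which about 17800000, 17800000 and 18600000 fragments were estimated. A listed 0 then allows up to 3 fragments, or 0.0841, 0.0842 and 0.0807 FPKM on a transcript of 2 kb, counting error only. Replicate 3 lay farther from the others: the median fold between libraries was 1.20 for replicates 1 and 2, 1.26 for 1 and 3 and 1.32 for 2 and 3. A listed 0 need not mean no RNA. FTL, the ferritin light chain, is listed at 0 in all 3 vector and both TIF1γ libraries but between 14970 and 33399 FPKM in the 3 libraries of the shRNA lines. KRT8 and KRT18, in turn, are listed at 0 in both TIF1γ libraries. Exact zeros are therefore written as listed at 0.

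As background, A549 cells carry inactivating KEAP1 and STK11 mutations and a homozygous deletion at CDKN2A. KEAP1 is the adaptor that marks the transcription factor NRF2 for degradation, and without it NRF2 drives genes for detoxification, glutathione and NADPH supply. Type 2 cells of the alveolus, to which the line is often likened, make surfactant, and in cultured tumour lines such products are often lost while simple keratins remain.

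The genes taken as markers of the line were all abundant, though other epithelial genes, given further below, were low or off. KRT8 and KRT18, the paired keratins of simple epithelia, stood at 5036, 5747 and 5307 FPKM and at 5092, 5721 and 4561 FPKM in replicates 1, 2 and 3, ranks 19 and 23 of all protein-coding genes. ALDH3A1, an aldehyde dehydrogenase under NRF2 control, was measured at 2153, 1824 and 3535 FPKM and ranked 72. GPX2, a glutathione peroxidase of the gut and airway epithelium, had 658, 677 and 1008 FPKM and ranked 173. Neither keratin spread by more than 1.3 times between libraries, whereas the 2 detoxification genes were highest in replicate 3. TRIM33, the gene overexpressed elsewhere in the series, was a low transcript here, with 2.23, 2.10 and 1.27 FPKM (rank 9888). TAF15 could not be matched by its current identifier and is not analysed here.

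A gene was called on when it reached 1 FPKM in all 3 libraries and off when it stayed under 0.1 FPKM in all 3. By these rules 10404 of 19254 protein-coding genes were on (54.0%), 5164 were off (26.8%) and 3686 lay between. These shares are the background for each count of list members below. Of the genes off, 3833 were listed at 0 in all 3 libraries. The limits are soft at their edges, since 1011 genes had at least 1 library on each side of 1 FPKM. Only 18 genes reached 1 FPKM in 1 library and were listed at 0 in another, and no protein-coding gene was listed at 0 beside 100 FPKM or more. For a 2 kb transcript, 0.1 FPKM is 3.57, 3.56 and 3.72 fragments in the 3 libraries, so the off limit sits just above the level that a listed 0 still allows.

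A small set of genes held most of the signal. The 149 genes with a mean of 1000 FPKM or more (0.774% of protein-coding genes) held 54.3% ± 1.37 of the summed protein-coding FPKM (SD, n = 3). The 945 genes between 100 and 1000 FPKM held 26.4% ± 1.15, and the 4541 between 10 and 100 FPKM held 16.6% ± 0.872. In all, 5.68% of protein-coding genes had a mean of 100 FPKM or more. The largest class by number, 5317 genes with a mean between 1 and 10 FPKM, of which 4770 were on, shared 2.59% ± 0.302. Below it, 2516 genes between 0.1 and 1 FPKM held 0.124%, and 1953 genes above 0 but under 0.1 FPKM held 0.00818%. Above 1 FPKM, the more abundant classes held genes with shorter annotated transcripts. Length here is the median over a gene's annotated protein-coding transcripts, not the length of the RNA expressed. Its class median was 743 bases at 1000 FPKM or more, 916 bases at 100 to 1000, 1498 bases at 10 to 100 and 2241 bases at 1 to 10. It rose no further below that, with 2164 bases at 0.1 to 1 FPKM, 2128.5 bases above 0 to 0.1 and 1533.5 bases for genes listed at 0 in all 3. Class membership was mostly kept between libraries, with 133 of 149 genes of the top class at 1000 FPKM or more in each library, and 4244 of 5317 genes of the class at 1 to 10 FPKM in that class in each.

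**Figure D1:**
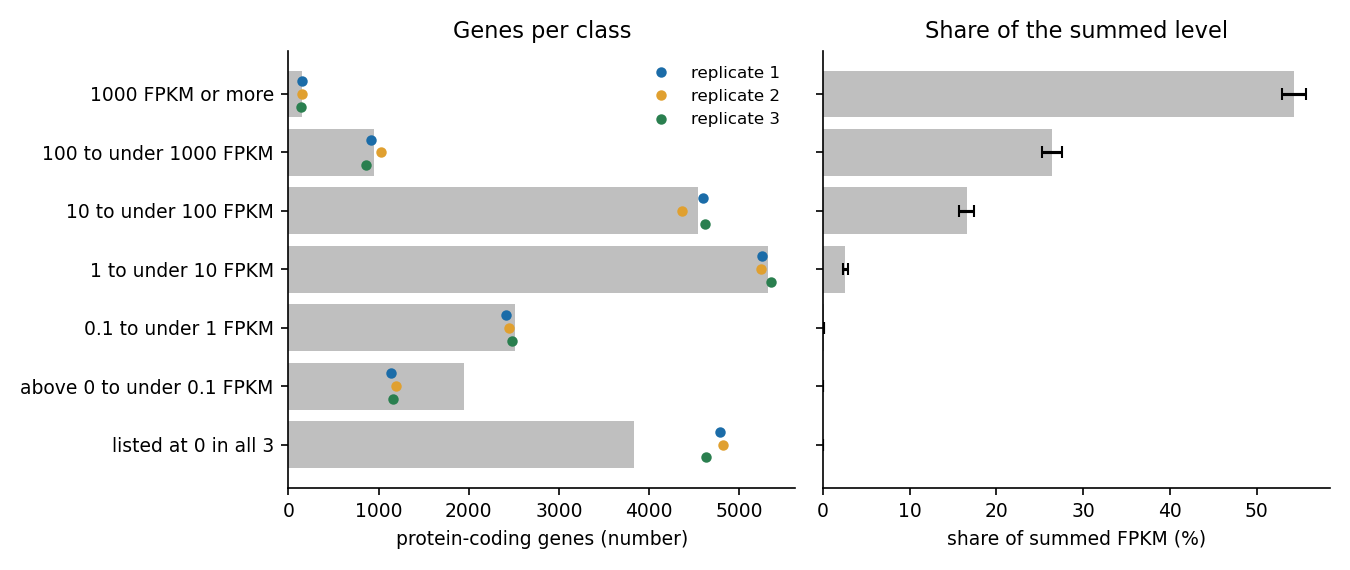
Number of protein-coding genes in each abundance class (left, bars by the mean of 3 vector libraries, points counted in each library alone) and the class's share of summed protein-coding FPKM in percent (right, mean of 3 with SD as error bars). The 149 genes in the top bar hold 54.3% of the sum. Points exceed the bar in the bottom class because they count genes listed at 0 in that library, not in all 3.

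The 10 most abundant genes held 11.4%, 11.6% and 13.3% of the protein-coding sum in replicates 1, 2 and 3, and the top 100 held 45.4%, 47.4% and 48.6%. Reaching 50% of the sum took 117 genes, 75% took 687 and 90% took 2441. Among the top 20 genes were 9 ribosomal protein genes and 5 mitochondrial ones, and among the top 100 there were 52 and 12. The libraries shared 15 genes of their own top 20 lists and 90 of their top 100.

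**Figure D2:**
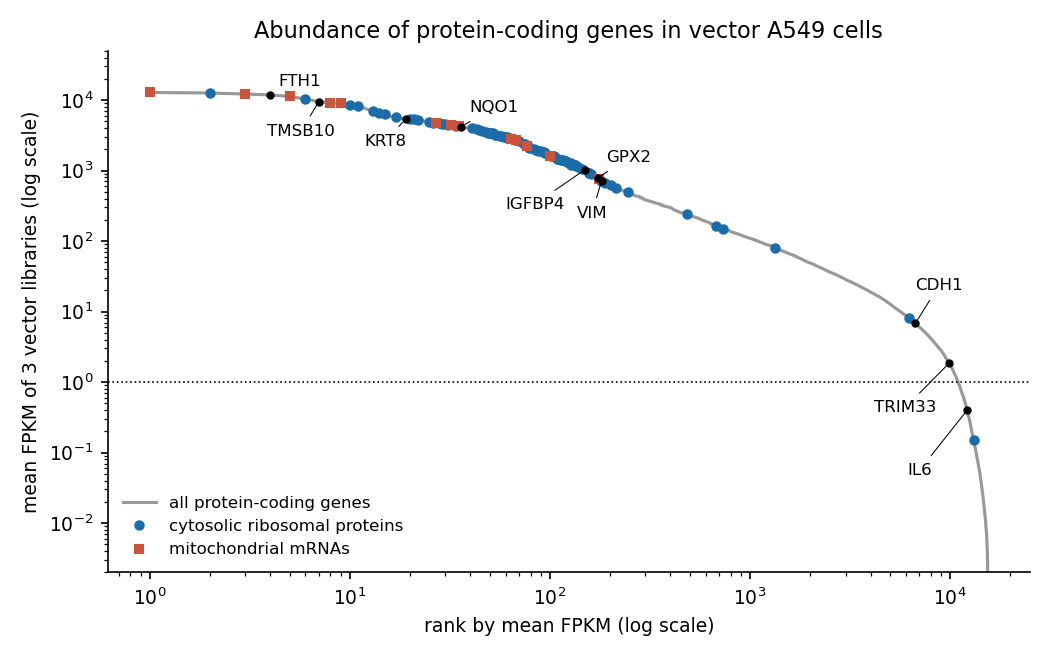
Mean FPKM of 3 vector libraries (log scale) against rank (log scale) for protein-coding genes, with cytosolic ribosomal protein genes as blue circles, mitochondrial mRNAs as red squares and chosen genes as labelled black points. Blue and red symbols crowd the first 100 ranks, TRIM33 at rank 9888 lies just above the dotted line at 1 FPKM, and IL6 lies under it.

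Mitochondrially encoded mRNAs, the 13 messages of respiratory chain and ATP synthase subunits, took 8.85% ± 2.05 of the protein-coding sum (SD, n = 3), from 7.25% in replicate 2 to 11.2% in replicate 3. The most abundant gene of all was MT-CO2, subunit 2 of cytochrome c oxidase, at 11760.4, 12894 and 13749 FPKM. Its partner subunits MT-CO3 and MT-CO1 stood at 10782, 12504 and 13221 FPKM and at 9827, 9024 and 14878 FPKM. MT-ND3, a complex I subunit, and MT-ATP8, of ATP synthase, had means of 9121 and 9064 FPKM. Replicate 3 held the highest deposited value of 12 of the 13, and all but MT-ND5 (606, 410.4 and 1256 FPKM) had a mean above 1000 FPKM. The 2 mitochondrial ribosomal RNAs, which are not protein-coding, took a further 1.55% ± 0.175 of the summed FPKM of all genes.

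Cytosolic ribosomal proteins took the largest share of any group described here, 26.9% ± 1.87 of the protein-coding sum. Of the 84 genes whose symbol fits the family, 82 were on and 69 had a mean of 1000 FPKM or more. RPS16 was the second most abundant gene, with 11182, 15110.1 and 11462 FPKM. RPS19, the gene mutated in Diamond-Blackfan anaemia, had 9706, 12064 and 9324 FPKM, and RPS27 had 7440.5, 9959 and 8221 FPKM. Replicate 2 was the highest of the libraries for all 3. RPS29 and RPL13 followed with means of 8283 and 6925 FPKM, and RPS2, RPL13A and RPLP0, also in the top 20, had means between 5328 and 6566 FPKM. The members not on were the tissue-restricted paralogs RPL3L, found mainly in striated muscle (0.153, 0.104 and 0.197 FPKM), and RPL10L, a testis gene listed at 0 in all 3. Many ribosomal protein genes have near-identical processed pseudogenes, and 1 of these, RPS28P7, is listed at 2935, 4320.1 and 3608 FPKM beside 136, 191 and 164 FPKM for RPS28, so the levels of single members are uncertain.

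The start sites of ribosomal protein genes typically lie in a run of pyrimidines, the TOP (terminal oligopyrimidine) element through which the mTOR pathway controls their translation. The promoters of 3 ribosomal protein genes of the top 10 and of the calcium-binding protein S100A6 (rank 18) are printed. They show hits of a search for this element at very abundant genes, since RNA levels per gene are what these data hold. They come from RefSeq (GRCh38.p14), each 150 bases before to 20 bases after the annotated start, 5′ to 3′, and the capitals mark the search hit, a C followed by 5 C or T letters that begins within 3 bases of the start on the gene's own strand. The windows are chr19:39435930-39436099 (minus strand) for RPS16, chr19:41860105-41860274 (plus strand) for RPS19, chr1:153990612-153990781 (plus strand) for RPS27 and chr1:153535972-153536141 (minus strand) for S100A6.
RPS16: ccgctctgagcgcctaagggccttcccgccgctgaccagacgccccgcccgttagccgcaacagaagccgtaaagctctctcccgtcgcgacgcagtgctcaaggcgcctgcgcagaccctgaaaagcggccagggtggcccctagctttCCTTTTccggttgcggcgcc
RPS19: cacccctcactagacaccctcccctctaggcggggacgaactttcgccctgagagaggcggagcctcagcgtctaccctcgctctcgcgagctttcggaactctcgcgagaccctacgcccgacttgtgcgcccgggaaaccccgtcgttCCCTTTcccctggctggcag
RPS27: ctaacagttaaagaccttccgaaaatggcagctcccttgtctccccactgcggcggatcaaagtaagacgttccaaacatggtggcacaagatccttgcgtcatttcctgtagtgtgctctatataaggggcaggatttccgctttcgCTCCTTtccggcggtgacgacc
S100A6: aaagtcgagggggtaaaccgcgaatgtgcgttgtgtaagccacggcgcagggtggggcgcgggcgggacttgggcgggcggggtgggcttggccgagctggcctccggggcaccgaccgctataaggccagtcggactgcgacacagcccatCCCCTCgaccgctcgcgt
The same search hit 9.14% of the 14631 promoters in the RefSeq table, which covers under 80% of the 19254 protein-coding genes, so this share describes the covered promoters and not all genes. The table holds 66 of the 84 ribosomal protein genes, also under 80%, so a comparison of the family with all genes is void and none is made. A hit describes letters in a window and says nothing of translation in these cells. The hit of S100A6 begins 2 bases after the annotated start and does not cover it. Whether it acts as a TOP element was not tested.

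The machinery around the ribosome was likewise on throughout. All 10 genes of the translation elongation list were on, led by EEF1A1, which brings tRNA to the ribosome, at 5210.4, 5185 and 4399.7 FPKM. EEF1G, a subunit of its exchange factor, had a mean of 1791 FPKM. TPT1, the translationally controlled tumour protein, is not itself an elongation factor and had 1594 FPKM. Every 1 of 24 chaperones was on, with PPIA (cyclophilin A) at 3425, 4459 and 3097 FPKM, HSPA8, the constitutive HSP70, at 1242, 1097 and 799 FPKM and the small heat shock protein HSPB1 at 781, 933 and 685 FPKM. All 76 mitochondrial ribosomal proteins and all 37 nuclear-encoded NADH dehydrogenase subunits were on, beside 54.0% of protein-coding genes overall. Of 38 proteasome subunit genes 36 were on, and the 2 off were PSMA8, a testis subunit, and PSMB11, the thymus subunit, both listed at 0.

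The 6 top 20 genes outside the ribosome and the mitochondrion encode an iron store, a glycolytic enzyme, a keratin, a calcium-binding protein and 2 cytoskeletal proteins. FTH1, the ferritin heavy chain, stood at 10702, 12458 and 12296 FPKM, rank 4. TMSB10, a thymosin that binds actin monomers, had 9068, 11631 and 7643 FPKM, and GAPDH of glycolysis had 7309, 7841 and 7442 FPKM. FTH1 and GAPDH varied by less than 1.5 times between libraries and TMSB10 by slightly more. S100A6 stood at 4540.1, 7246 and 4729 FPKM, highest in replicate 2. ACTG1, gamma actin, had 5479.8, 3495 and 8651 FPKM, and ACTB, beta actin, had 3839, 5167 and 3095 FPKM, so the order of the 2 actins changed between libraries. Their coding sequences are near identical, so the split is uncertain, and the summed values were 9318, 8662 and 11746 FPKM.

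Of 38 genes for actin, tubulin and their binders, 30 were on and 21 had a mean of 100 FPKM or more, beside 54.0% and 5.68% of protein-coding genes. After the genes above came TMSB4X, another thymosin (4263, 4719 and 3377 FPKM), and PFN1, profilin (3885, 4389 and 3751 FPKM). The muscle actins ACTA1 and ACTC1 and the testis tubulin TUBA3C were listed at 0, and the platelet tubulin TUBB1 was off. Vimentin (VIM), an intermediate filament of mesenchymal cells, was abundant in this epithelial line at 741, 801 and 589 FPKM. Among 27 annexins and S100 proteins 19 were on, led after S100A6 by S100A4 (3647, 4499 and 3784 FPKM) and by ANXA2 (2572, 2713 and 2163 FPKM) with its partner S100A10 (1232, 1669.6 and 737 FPKM). S100A7, S100A8 and S100B, typical of keratinocytes, myeloid cells and glia, were listed at 0. Of 11 metallothioneins, metal-binding proteins, 4 were on, with MT2A at 279, 356 and 275 FPKM and MT1X at 139, 178 and 143 FPKM, while MT1G, MT1H, MT1M and MT4 were listed at 0.

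Targets of NRF2 and the enzymes that supply NADPH were nearly all on. Of 35 members 34 were on, 20 had a mean of 100 FPKM or more and 10 had 1000 FPKM or more, beside 54.0%, 5.68% and 0.774% of protein-coding genes, and together they took 4.28% ± 0.348 of the protein-coding sum. The single member not on was FTL, whose listed 0 is described above. NQO1, the quinone reductase, stood at 4010.4, 4654 and 3931 FPKM. AKR1C2 and AKR1B10, aldo-keto reductases that reduce steroids and retinal, had 3489.9, 3939 and 4421 FPKM and 2607, 3129 and 2129.8 FPKM. All 3 differed between libraries by less than 1.5 times. The peroxiredoxin PRDX1 had a mean of 1942 FPKM and thioredoxin (TXN) had 1301 FPKM. PGD, an NADPH-making enzyme of the oxidative pentose phosphate pathway, stood at 1003, 861 and 1246 FPKM. The lowest of the group was SLC7A11, the cystine importer, at 8.37, 8.20 and 10.03 FPKM. NFE2L2, which encodes NRF2, was itself at 20.01, 19.99 and 13.5 FPKM and KEAP1 at 54.6, 73.6 and 53.4 FPKM. A level of KEAP1 RNA says nothing of the function of its product.

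The promoter of GPX2 is shown because it holds the core letters of the antioxidant response element that NRF2 binds with small MAF proteins, searched as TGACNNNGC and, for the other strand, GCNNNGTCA. The window is chr14:64942726-64942895 (minus strand, GRCh38.p14), with the hit in capitals 122 bases before the start.
GPX2: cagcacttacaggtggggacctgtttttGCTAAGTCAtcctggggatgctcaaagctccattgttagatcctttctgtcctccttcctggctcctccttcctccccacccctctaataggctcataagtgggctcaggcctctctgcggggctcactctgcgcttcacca
Any hit of this short pattern in the 300 bases around a start is common, at 14.3% of the 14631 promoters covered, and is a description, not a site shown to be bound.

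Across the aldehyde dehydrogenase and aldo-keto reductase families, 24 of 29 members were on (82.8%), beside 54.0% of protein-coding genes. Beyond the NRF2 targets, AKR1B1, the aldose reductase, had 1239, 1453 and 1619 FPKM and ALDH1A1, which makes retinoic acid, had 1209, 1129 and 1307 FPKM. ALDH3B2 and the liver enzyme AKR1D1 were listed at 0. AKR1C1 and AKR1C2 share most of their sequence, so the split between 824 and 3950.0 FPKM is uncertain. Of 26 glycolysis genes 17 were on (65.4%), beside the same 54.0%. ENO1 had 3559.6, 3812 and 3495 FPKM, ALDOA had 3209, 3479.8 and 2852 FPKM, and PKM, pyruvate kinase, had 2008, 1772 and 2377 FPKM. Genes off included isozymes of other tissues: PKLR of the liver, PGAM2 of muscle, HK3, and the germ cell genes PGK2, GAPDHS and LDHC. Hexokinase was represented by HK1 (20.3, 15.9 and 27.1 FPKM), as HK2 had 0.168, 0.126 and 0.145 FPKM. Among 55 cytochromes P450 10 were on and 28 off. CYP24A1, which inactivates vitamin D, was alone above 100 FPKM, at 227, 197 and 341 FPKM, and the second, CYP2S1, had 26.2, 18.8 and 48.5 FPKM.

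Proliferation genes were on nearly without exception, beside 54.0% of protein-coding genes. Of 30 S phase genes 29 were on, with PCNA, the replication clamp, at 455, 511 and 316 FPKM, MCM7 of the replicative helicase at 194, 240.2 and 127 FPKM and TYMS, thymidylate synthase, at 174, 209 and 109 FPKM. Of 40 G2 and M phase genes 39 were on, led by PTTG1 (securin) at 338, 410.1 and 212 FPKM, UBE2C at 218, 255 and 151 FPKM and CCNB1 (cyclin B1) at 210.0, 197 and 109.5 FPKM. All 6 of these were lowest in replicate 3. The members short of on were CCNE2, with a mean of 0.806 FPKM, and CENPE, with 1.14 FPKM. CDKN2A and CDKN2B, inhibitors of the G1 kinases that lie in the region deleted in A549, were listed at 0 in all 3 libraries. MTAP, which neighbours CDKN2A, had 0.262, 0.591 and 0.308 FPKM. STK11 stood at 36.7, 49.4 and 44.5 FPKM and SMARCA4, the chromatin remodeller also mutated in A549, at 1.74, 2.89 and 1.83 FPKM.

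Epithelial identity was partial. Of 27 simple epithelial genes 19 were on (70.4%), 4 were off (14.8%) and 4 lay between, beside 54.0% on and 26.8% off of protein-coding genes. Besides KRT8 and KRT18, KRT7 had 1888, 1992 and 1764 FPKM, KRT81, a hair keratin, had 1043, 1349 and 927 FPKM, and SPINT2, a protease inhibitor, had 519, 621 and 605 FPKM. In contrast, KRT19, common in simple epithelia, stood at 26.9, 30.8 and 41.6 FPKM. The adhesion and junction genes covered a wide range. JUP (plakoglobin) had 65.3, 61.4 and 120.4 FPKM and PKP3, a desmosomal plakophilin, had a mean of 40.7 FPKM, whereas CDH1 (E-cadherin) had 5.81, 4.27 and 10.4 FPKM and EPCAM had 3.75, 3.20 and 1.80 FPKM. The genes off were regulators of the epithelial state, namely the splicing factors ESRP1 and ESRP2 and the transcription factors GRHL2 and OVOL1, each with a mean of 0.0359 FPKM or less. In the whole keratin family 11 of 55 genes were on and 37 were off. Of 24 claudins 7 were on, and the highest were CLDN2, of leaky epithelia, at 17.3, 14.7 and 47.01 FPKM and CLDN1 at 10.3, 9.02 and 11.7 FPKM.

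Markers of stratified and basal epithelium were mostly not on, 3 of 19 (15.8%), and 11 were off (57.9%), beside 54.0% and 26.8% of protein-coding genes. KRT5, KRT14, KRT13, KRT1, KRT6C, DSG3, IVL, SPRR1B and LOR were listed at 0, and KRT17 and KRT6A were under 0.1 FPKM. The members on were KRT10 (26.2, 31.9 and 25.6 FPKM), KRT4 (10.5, 8.35 and 23.7 FPKM) and KRT15 (2.26, 2.41 and 2.63 FPKM).

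Most of the products that define the mature alveolar type 2 cell were not on. SFTPA1, SFTPA2 and SFTPB, which encode surfactant proteins, SLC34A2, the phosphate carrier used in surfactant recycling, and PGC were listed at 0 in all 3 libraries, and CLDN18 was off. SFTPC, the most specific marker, stood at 0.136, 0.802 and 0.328 FPKM. Of 14 members 3 were on (21.4%) and 6 off (42.9%), beside 54.0% and 26.8% of protein-coding genes. Those on were LPCAT1, ETV5 and ABCA3. LPCAT1, which makes surfactant phosphatidylcholine, had 23.8, 24.04 and 16.5 FPKM. The transcription factor ETV5 had 15.6, 14.9 and 14.95 FPKM, and the lipid transporter ABCA3 had 4.24, 3.66 and 8.21 FPKM. NAPSA lay near 1 FPKM, at 0.666, 1.24 and 1.16 FPKM. Of 10 type 1 markers 4 were on, CAV1 (102, 109 and 56.4 FPKM), GPRC5A (62.9, 37.6 and 71.2 FPKM), CAV2 (57.9, 68.6 and 34.8 FPKM) and EMP2 (18.2, 24.04 and 14.8 FPKM), which many cultured cells express. AGER, a receptor typical of type 1 cells, stood near 1 FPKM at 0.788, 1.31 and 0.802 FPKM, as did RTKN2 at 1.22, 1.88 and 0.728 FPKM, while PDPN, AQP5, HOPX and CLIC5 were listed at 0.

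The promoter of SFTPA1 is printed as that of a lung-restricted gene listed at 0. It has a TATA box, the exact letters TATAAA, in capitals 28 bases before the start, in the window chr10:79610789-79610958 (plus strand, GRCh38.p14). The search counts no other form. The RPS27 and S100A6 promoters printed above hold the near match TATAAG, so no contrast with them is drawn.
SFTPA1: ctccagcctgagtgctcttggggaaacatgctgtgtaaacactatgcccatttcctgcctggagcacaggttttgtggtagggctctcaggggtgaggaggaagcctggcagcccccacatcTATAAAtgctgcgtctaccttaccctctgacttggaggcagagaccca
TATAAA on the gene's strand with its first base 20 to 45 bases before the start was found in 3.49% of the 14631 promoters. It overlaps no other motif searched here.

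Few airway cell markers were on, but most of the ciliated ones lay between on and off. Of 11 club and secretory airway markers 1 was on (9.09%) and 5 were off (45.5%), beside 54.0% and 26.8% of protein-coding genes. The member on was SLPI, a protease inhibitor of mucosal fluids, at 94.6, 114 and 246 FPKM, highest in replicate 3. SCGB1A1, SCGB3A1 and SCGB3A2, the secretoglobins, and LTF were listed at 0, and CYP4B1 was off. Of 11 ciliated cell markers CAPS alone was on (2.81, 5.56 and 4.37 FPKM), while 8 lay between and 2 were off (18.2%), fewer than the 26.8% of protein-coding genes. With a threshold of 0.5 FPKM 3 were on. DNAH9 and TEKT1 of the cilium were listed at 0, and FOXJ1, which directs ciliogenesis, had 0.123, 0.125 and 0.239 FPKM.

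**Figure D3:**
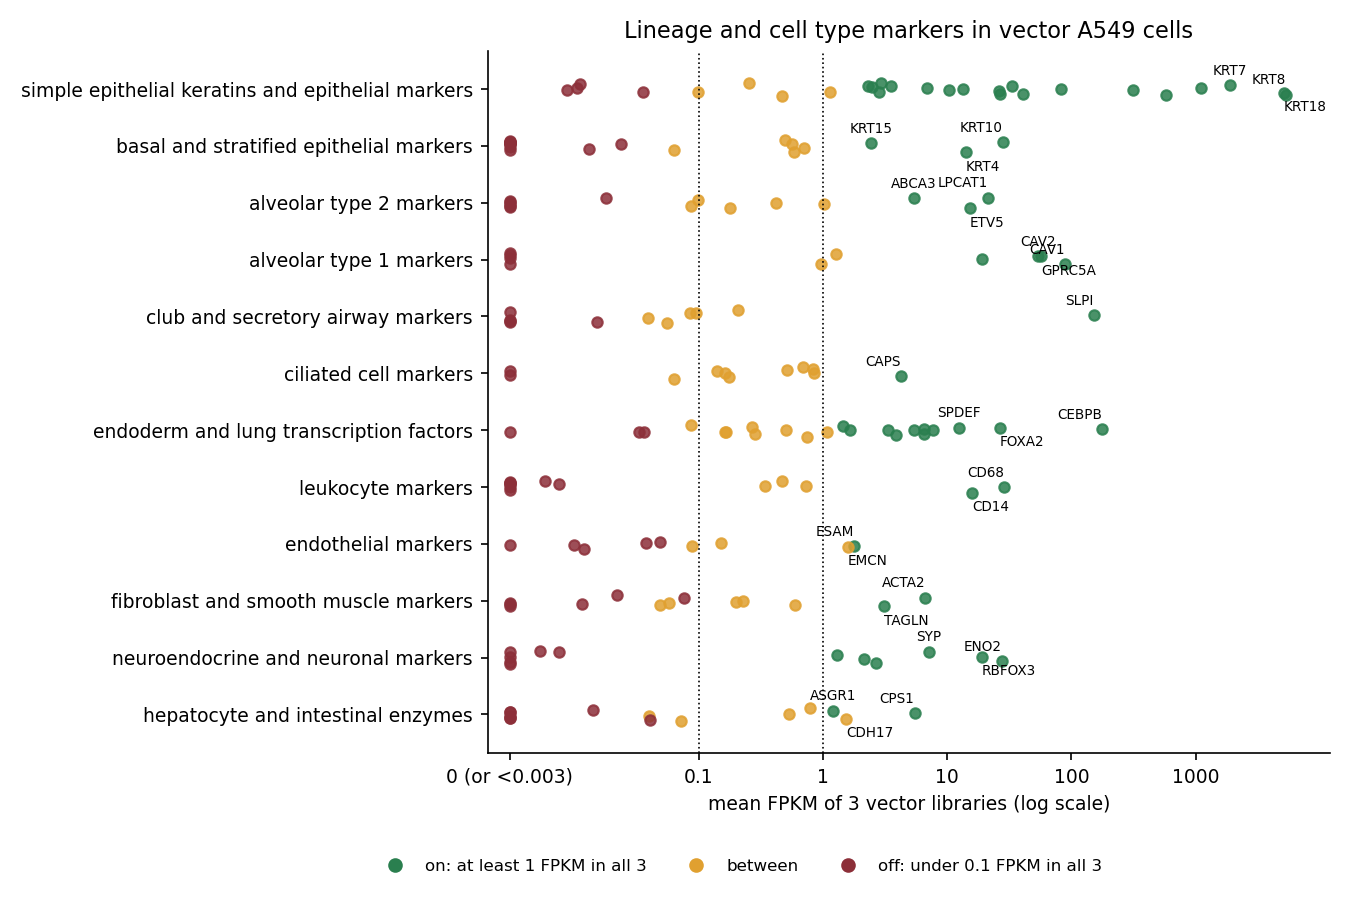
Mean FPKM of 3 vector libraries (log scale, values under 0.003 drawn at the left edge) for the members of 12 lineage and cell type lists, 1 point per gene, coloured by whether the gene was on, between or off. The highest members are labelled, and the dotted lines mark 0.1 and 1 FPKM. KRT8 and KRT18 lie at the far right, while most basal, club, leukocyte and endothelial markers lie left of 1 FPKM.

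Among endoderm and lung transcription factors 11 of 22 were on, close to the 54.0% of all protein-coding genes. CEBPB, a regulator of acute phase and inflammatory genes, was by far the highest at 164, 167 and 195 FPKM. FOXA2, a pioneer factor of foregut endoderm, had 23.8, 27.5 and 28.6 FPKM, and SPDEF, of goblet cells, had 8.43, 7.83 and 20.9 FPKM. CEBPA and FOXA1 followed with means of 7.66 and 6.51 FPKM. HNF4A, a factor of liver and gut, was also on, at 5.21, 3.89 and 7.06 FPKM. NKX2-1, the factor that defines lung endoderm, stood at 0, 0.0517 and 0.206 FPKM and SOX2 of the proximal airway at 0.372, 0.233 and 0.254 FPKM. PDX1 of pancreas, CDX1 of intestine and FOXP2 were off. The HOX genes, which record position along the body axis, were on in 19 of 39 cases, again near 54.0%, with HOXB7 the highest at 27.9, 32.5 and 23.1 FPKM.

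Of 28 chemokines and cytokines 14 were on and 5 off, shares near or below the 54.0% and 26.8% of all protein-coding genes. MIF, which most proliferating cells make, stood at 1331, 1844 and 1414 FPKM, far over the rest. CCL2, which attracts monocytes, had 93.97, 126 and 86.4 FPKM, and CXCL1, which attracts neutrophils, had 82.3, 114 and 106 FPKM. IL18 and CXCL5 had means of 54.5 and 53.5 FPKM, and CXCL8 (interleukin 8) had 31.5, 33.9 and 37.2 FPKM. IL6 was not on, at 0.301, 0.226 and 0.674 FPKM, with all 3 values under 1 FPKM. The interferon-induced CXCL11, the stromal CXCL12, CXCL6, CCL28 and TSLP were off.

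Of 41 growth factors, their binding proteins and matrix regulators, 30 were on (73.2%), beside 54.0% of protein-coding genes. IGFBP4, which binds insulin-like growth factors, stood at 982, 966 and 1122 FPKM and was 1 of the 149 genes at 1000 FPKM or more. TGFBI, a TGF-beta induced matrix protein, had 291, 334 and 279.8 FPKM, and GDF15, a stress cytokine, had 259.7, 292 and 344 FPKM. These 3 differed by less than 1.5 times between libraries. IGFBP2 and TIMP1, an inhibitor of metalloproteinases, had means of 205 and 203 FPKM. IGFBP5 was listed at 0, and INHBA and TIMP3 were off. Of the metalloproteinases MMP7, matrilysin of glandular epithelium, had 138, 153 and 143 FPKM, while MMP9 had 0, 0.240 and 0.183 FPKM.

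Of 25 matrix genes 16 were on (64.0%), beside 54.0% of protein-coding genes. Fibronectin (FN1) had 81.1, 106 and 153 FPKM, and the laminin chains LAMA5 and LAMB2 had 110.1, 124 and 85.3 FPKM and 37.8, 42.8 and 44.4 FPKM, with agrin (AGRN) at 34.1, 34.96 and 47.6 FPKM and LAMB1 at 27.6, 33.3 and 22.9 FPKM. LAMA1, the fibrillar collagen chains COL1A2 and COL3A1, and tenascin C (TNC) were off.

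Mucus products were few. AGR2, a disulfide isomerase that folds mucins, stood at 128, 148 and 171 FPKM. MUC1, a membrane mucin, had 3.07, 4.87 and 4.06 FPKM, MUC12 had 2.28, 5.15 and 2.40 FPKM and TFF1, a trefoil factor, had 1.80, 3.77 and 1.91 FPKM. The gel-forming MUC5B had 1.72, 1.06 and 5.59 FPKM, with replicate 3 the highest and replicate 2 barely over 1 FPKM. In all 5 of 19 members were on (26.3%), beside 54.0% of protein-coding genes. MUC6, MUC7, MUC15, MUC17, MUC21 and TFF2 were listed at 0, and MUC2 and MUC4 were off.

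Liver-type plasma proteins were on in 12 of 34 cases (35.3%), at low to moderate levels, and 8 were off (23.5%). Of all protein-coding genes 54.0% were on and 26.8% off. Complement C3 led with 28.2, 50.3 and 43.1 FPKM, followed by apolipoprotein H (APOH) with 13.4, 15.1 and 27.2 FPKM. The fibrinogen chains FGA, FGB and FGG, which assemble into 1 clotting protein, had 13.4, 10.3 and 22.4 FPKM, 9.60, 8.10 and 15.3 FPKM and 7.60, 7.19 and 14.9 FPKM. All 3 chains were highest in replicate 3. SERPINA3, antichymotrypsin, had a mean of 12.5 FPKM, and FGL1 had 11.9 FPKM. Albumin (ALB), APOA2, APOB, ORM2, CRP, haptoglobin (HP) and plasminogen (PLG) were listed at 0, and C4B was off. C4A and C4B are near identical copies whose split is uncertain. Hepatocyte and intestinal enzymes were on in 2 of 14 cases, CPS1 of the urea cycle (5.74, 3.67 and 6.99 FPKM) and ASGR1 (1.02, 1.09 and 1.52 FPKM). CYP3A4, G6PC, FABP1, FABP2 and SI were listed at 0, and TAT and PCK1 were off.

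**Figure D4:**
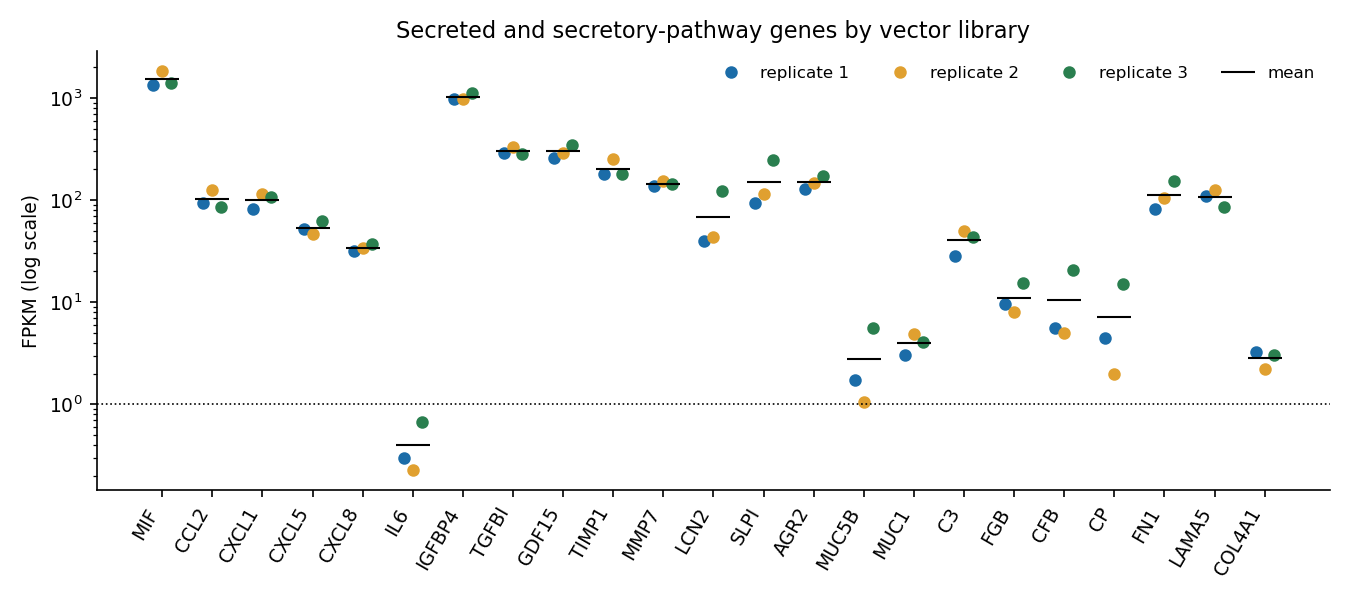
FPKM (log scale) of 23 secreted or secretory-pathway genes in vector replicates 1, 2 and 3 (points), with the mean as a bar and a dotted line at 1 FPKM. MIF and IGFBP4 stand near or above 1000 FPKM in each library, IL6 lies under 1 FPKM in all 3, and replicate 3 is the highest point for LCN2, SLPI, MUC5B, FGB, CFB and CP.

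Markers of other cell types that a sample could hold were mostly not on for leukocytes, endothelium and fibroblasts, while neuroendocrine and neuronal markers were on about as often as protein-coding genes overall (54.0%). Of 13 leukocyte markers 2 were on, CD68, a lysosomal protein (24.4, 28.05 and 34.01 FPKM), and CD14 (12.5, 11.7 and 23.6 FPKM). The defining PTPRC (CD45) had a mean of 0.00756 FPKM and CD3E, MS4A1, LYZ, FCGR3A and NKG7 were listed at 0, with CD4 off. Of 9 endothelial markers ESAM was on (1.97, 1.54 and 1.86 FPKM), and VWF, KDR, FLT1, TIE1 and TEK were off. EMCN had 0, 4.74 and 0 FPKM, a value in replicate 2 alone. Of 13 fibroblast and smooth muscle markers 2 were on, ACTA2 (7.16, 4.23 and 8.52 FPKM) and TAGLN (3.11, 2.09 and 4.16 FPKM), while DCN, FAP and POSTN were listed at 0 and LUM, COL1A2 and COL3A1 were off. Of 12 neuroendocrine and neuronal markers 6 were on, led by ENO2 (27.5, 25.4 and 29.97 FPKM), RBFOX3 (11.95, 16.5 and 28.5 FPKM) and the synaptic vesicle protein SYP (7.80, 5.69 and 7.77 FPKM), with CHGB and SNAP25 at means of 2.69 and 2.12 FPKM. GRP, CALCA, INSM1 and NEUROD1 were listed at 0, and NCAM1 was off. The summed FPKM of the 13 leukocyte markers ran from 38.3 to 59.6 over the 3 libraries, that of the 9 endothelial markers from 2.01 to 6.64, that of the 13 fibroblast and smooth muscle markers from 7.35 to 13.6 and that of the 12 neuroendocrine and neuronal markers from 52.3 to 74.2.

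Several families of tissue-restricted genes were mostly off. Of 354 olfactory receptors 351 were off, of 92 keratin-associated proteins 91, of 39 beta-defensins 38 and of 24 bitter taste receptors 19, beside 26.8% of protein-coding genes. The exception among beta-defensins was DEFB1 (1.48, 1.95 and 4.28 FPKM), the defensin made constitutively by epithelia. Of 24 MAGE genes, which are normally confined to the germ line, MAGEA6 alone was on, at 27.7, 29.9 and 19.7 FPKM, and 19 were off. MAGE genes are close copies of each other, so reads may be split among them. Zinc finger (ZNF) genes were on in 210 of 500 cases, beside the same 54.0%, and none had a mean of 100 FPKM or more, the highest being ZNF511 at 78.7, 116 and 83.03 FPKM. Solute carriers were on in 178 of 362 cases, a share near the 54.0% of all protein-coding genes. The mitochondrial phosphate carrier SLC25A3 and the ADP/ATP carrier SLC25A5 led with means of 795 and 774 FPKM.

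Most genes off in vector cells were also under 0.1 FPKM in the other lines. Of the 5164 genes off, 4390 were under 0.1 FPKM in each of the 5 other libraries analysed and 45 reached 1 FPKM in any of them. The 2 that reached 10 FPKM were FTL and FPR1, a formyl peptide receptor with 0, 0 and 0.0284 FPKM in vector cells and 16.8, 14.3 and 20.1 FPKM in the sh-NC and the 2 sh-TAF15 libraries. No test was made of this difference. The share of all protein-coding genes under 0.1 FPKM in the other libraries was not computed. Low values shared between libraries need not mean no RNA, since FTL is also listed at 0 in both TIF1γ libraries.

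For the spread between replicates, each library was first divided by its protein-coding sum. Over the 10404 genes on, the median coefficient of variation (CV, SD over mean of 3) was 19.2%, with quartiles of 12.1% and 27.99%. It was 10.3% among genes at 1000 FPKM or more, 13.1% at 100 to 1000, 17.2% at 10 to 100 and 23.0% at 1 to 10 FPKM, so the more abundant classes were the more reproducible ones. The highest library was at least 2 times the lowest for 13.6% of genes on, 1412 genes. That share rests on the libraries compared: it was 2.40% without replicate 3, 5.20% without replicate 2 and 10.8% without replicate 1, and the median CV was 13.1% without replicate 3.

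The 10 genes with the highest CV among those with a mean of 10 FPKM or more had means of 10.1 to 16.1 FPKM. Most were set by 1 library. The selection favours this pattern, as 1 high value can carry a gene over the 10 FPKM limit and also raises its CV. SULT1A4, a sulfotransferase, had 43.8, 1.86 and 1.71 FPKM, and SERF1B had 27.95, 1.46 and 0.935 FPKM. Both have a near-identical copy, SULT1A3 and SERF1A, but the sum over each pair was also high in replicate 1 alone, 46.1, 4.31 and 3.84 FPKM and 28.1, 1.56 and 1.09 FPKM. BARD1, the partner of BRCA1, stood at 2.44, 31.2 and 1.57 FPKM, high in replicate 2. CHAC1, a glutathione-degrading enzyme of the ATF4 stress response, had 2.64, 3.20 and 25.2 FPKM, high in replicate 3. Likewise PTK2B (5.15, 4.35 and 21.4 FPKM), CFB, complement factor B (5.58, 5.05 and 20.9 FPKM), and LMF1, a lipase maturation factor (5.70, 5.54 and 19.9 FPKM), were high in replicate 3. RGS12 had 26.1, 3.47 and 5.90 FPKM and AREG, amphiregulin, an EGFR ligand, had 30.4, 9.61 and 8.32 FPKM, both high in replicate 1. HNRNPUL2-BSCL2, a read-through gene, had 12.1, 1.42 and 18.4 FPKM, low in replicate 2. With 3 values per gene there is no test for an outlying library.

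Members of some gene groups deviated in the same direction in a library. To be free of the scaling, each gene's log2 deviation from the 3-library mean was taken, and the median of a group is given minus the median of all genes on. In replicate 3 this was -0.48 for G2 and M phase genes, -0.39 for S phase genes and -0.36 for chaperones, and 0.33 for mitochondrial mRNAs, 0.47 for endoderm and lung transcription factors and 0.64 for liver-type plasma proteins. After division by the protein-coding sum, replicate 3 was the lowest library for 34 of 39 G2 and M phase genes and 26 of 29 S phase genes on, beside 37.8% of all genes on (34 and 27 under a trimmed mean scaling, beside 41.2%), and the highest for all 13 mitochondrial mRNAs and 10 of 12 plasma proteins, beside 40.3% (40.9% under a trimmed mean scaling). Replicate 2 stood apart in another set, at 0.24 for cytosolic ribosomal proteins, 0.28 for NADH dehydrogenase subunits and 0.27 for mitochondrial ribosomal proteins, the last of which lay as far the other way in replicate 3, at -0.28. Replicate 2 was the highest library for 65 of 82 ribosomal proteins, beside 17.1% of all genes on, and for 81 under a trimmed mean scaling, beside 35.1%. The group medians of NRF2 targets and glycolysis enzymes lay farthest from that of all genes in replicate 2, at only 0.0624 and -0.0412. Those figures are medians of groups. Single members still differed between libraries. Replicate 3 was the highest library for 15 and the lowest for 17 of 34 NRF2 targets on. The median CV of these NRF2 targets was 18.4%, beside 19.2% for all genes on, and that of glycolysis enzymes was 15.1%.

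Over all genes on, the deviations also differed with base composition. In replicate 3 the median log2 deviation was -0.23 for genes with a transcript GC content under 40%, -0.10 at 40 to 50%, 0.13 at 50 to 60% and 0.19 at 60% or more. The part of GC content in the deviations of the groups was not tested. In such bulk samples fewer cells in a phase and less RNA of a gene per cell cannot be told apart. With 3 libraries of 1 group, these deviations describe the libraries and carry no p value.

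**Figure D5:**
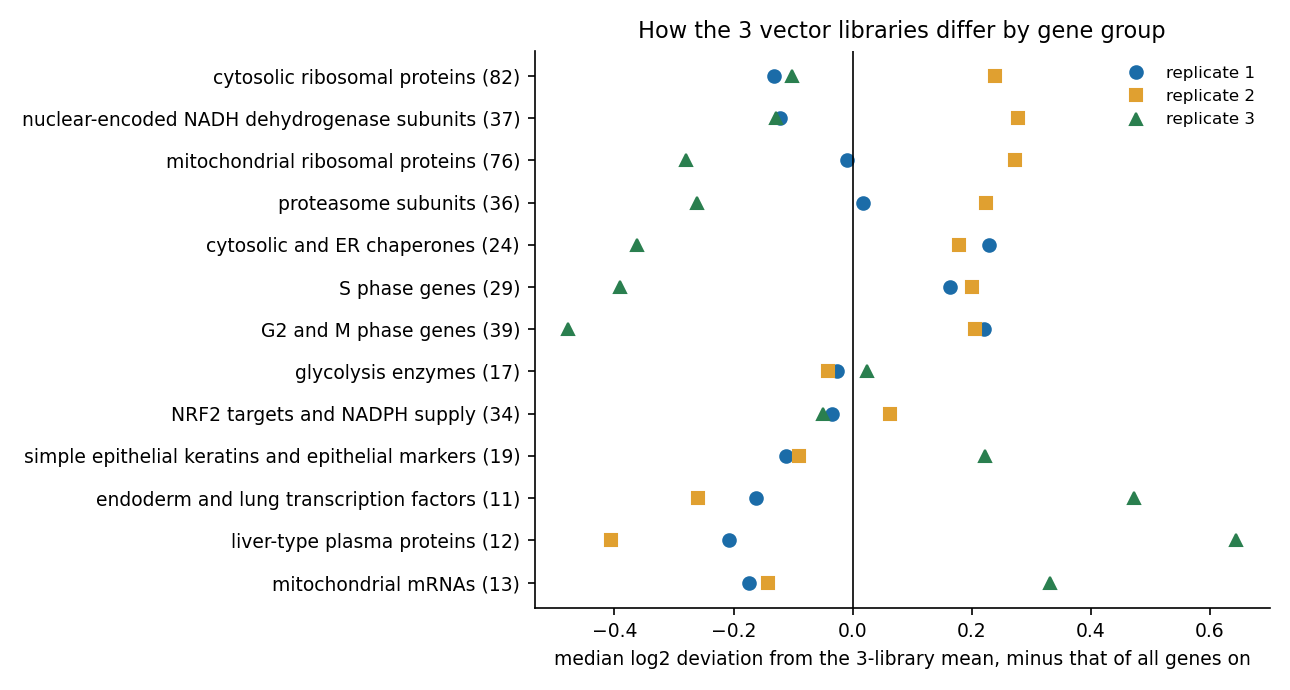
Median log2 deviation from the mean of 3 vector libraries for 13 gene groups, minus that of all genes on (x axis), with replicate 1 as circles, replicate 2 as squares and replicate 3 as triangles and the number of genes on in brackets. Replicate 3 lies at -0.48 for G2 and M phase genes and at 0.64 for liver-type plasma proteins, and replicate 2 lies right of the others for ribosomal proteins.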

How the data were processed

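RNA from 3 vector A549 libraries was analysed as 1 group, taken from the sample titles. Per the labels, poly(A) selection or ribosomal RNA removal of 1 μg of RNA preceded sequencing. The submitters' processing notes name cutadapt 1.9.1, HISAT2 2.0.1, HTSeq 0.6.1 and GRCh37, with no roles. The authors deposited FPKM with no logarithm, and how these were computed is not given in the sources used here. Identifiers were matched to GENCODE 29 (GRCh38) for names, gene types, transcript length and GC only (52324 of 57879 matched, and the other 5555 held 0.519% of the signal).

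Levels are FPKM as deposited, without a pseudocount. Spread was computed after dividing each library by its protein-coding sum, with Python 3.11.15, pandas 2.3.3 and numpy 2.4.6, and the spread script was tested on simulated data. The 29 gene lists and 15 symbol families, like the group itself, were chosen with earlier results of these data known, and 5 of 604 list symbols had no value. The genes named are the top 20 by mean FPKM, the markers and targeted genes, up to 5 highest and all off members of each list, up to 5 of a family, and the 10 with the highest CV at 10 FPKM or more. Other list members named (such as IL6, CDH1, EPCAM, VIM, SFTPC, NKX2-1, MMP9, HNF4A and HK2) and the genes FPR1, RPS28, RPL3L and RPL10L were chosen after their values were seen. Alternatives left out each replicate and changed thresholds, scaling and genes counted. Some list members are not reported here.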

Additional observations from a re-analysis of the deposited data

How the results depend on the processing

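The 7 main counts, shares and spreads were each recomputed under several settings, which gave 63 values. Of these, 55 stayed within 1.5 times of a count or within 1 SD of another value. For the shares of the top genes this was the SD of 3 libraries. For the spreads it was the SD of the values with each replicate left out in turn. Some of the 55 could not move. No protein-coding gene was listed at 0 beside 100 FPKM or more, so leaving such genes out changed nothing. The top 10 and top 100 shares were identical when whole libraries were rescaled. The 8 that moved concern spread and concentration. Leaving out each replicate in turn gave 10503 to 10605 genes on, 5392 to 5525 genes off, 1040 to 1129 genes at 100 FPKM or more, 11.6% to 12.5% of the sum in the top 10 genes and 46.4% to 48.0% in the top 100. The median CV ran from 13.1% (without replicate 3) to 19.3%, and the share of genes on with a highest library at least 2 times the lowest from 2.40% (without replicate 3) through 5.20% (without replicate 2) to 10.8%, partly by construction, since 2 libraries spread less than 3. Without the 13 mitochondrial mRNAs the top 10 genes held 10.9% and the top 100 held 44.4%. With no filter beyond a mean above 0 the median CV was 24.9%, and among genes at 10 FPKM in all 3 libraries the share at 2 times or more was 5.67%, as low genes were added or removed. The median SD of log2(FPKM + 1) was 0.24, a value on another scale. Of the 29 lists, the number on moved past 1.5 times in 1 at a threshold of 0.5 FPKM, in 4 at 2 FPKM and in none when any 1 replicate was left out. The scalings as deposited, by the sum of all genes and by a trimmed mean, tried for the group deviations between replicates, were added after seeing the data. No paired analysis was possible because only 1 group is described and its results come from no test. Depth limits the off calls, as 0.1 FPKM is under 4 fragments on a 2 kb transcript. The exact zeros of FTL show that a listed 0 can stand for a gene that is abundant in other libraries of the line, and short transcripts carry uncertain FPKM.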

Other observations

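Several transcripts outside the protein-coding class were abundant. The mitochondrial ribosomal RNA MT-RNR2 was listed at 12078, 12823 and 9706 FPKM in replicates 1, 2 and 3, although the libraries were prepared with poly(A) selection or ribosomal RNA removal. Among host transcripts of small nucleolar RNAs, SNHG5 had 603, 756 and 608 FPKM and GAS5 had 197, 233 and 245 FPKM. GPX1, a selenoprotein glutathione peroxidase that GENCODE 29 classes as a polymorphic pseudogene and that is thus outside the protein-coding ranking, had 461, 594 and 448 FPKM, on the order of GPX2. The small RNA gene RF00019 was listed at 1466, 0 and 0 FPKM, 1 of 5 genes of any type with at least 100 FPKM in 1 vector library beside a listed 0 in another.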
